A study of Mus musculus with 15 samples.

Results

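The 6 libraries described here, of 15 in the series, measured the mRNA of mouse cytotoxic T lymphocytes (CTL) that had been kept in interleukin-2 (IL-2) or deprived of it for 24 h. They were chosen by their sample titles, which name 3 biological replicates with IL-2 and 3 without, and every mRNA of their table, 11211 in all, was used. The CTL came from mice that carry the P14 T cell receptor (TCR) transgene, LCMV-P14, so that nearly all of the CD8 T cells recognise a single viral peptide. Cells of both groups were activated for 48 h, and after a wash IL-2 at 20 ng/ml sustained them for 4 days in complete RPMI. Both groups were then washed free of the cytokine, on day 6, and one of them received it again at 20 ng/ml, so both had been through the wash. The treatment label of replicates 2 and 3 in IL-2 names IL-3 and IL-4, a running number that does not go with their titles or the culture protocol, and these were grouped by title. The sex, age and number of the mice behind these CTL were not given in the sources used here, nor was any sort before lysis, and the values describe cultured cells of 1 transgenic TCR.

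IL-2 is the growth and survival cytokine of activated T cells. It binds a receptor made of an alpha chain, a beta chain and the common gamma chain. The receptor activates the kinases JAK1 and JAK3, which phosphorylate STAT5, a transcription factor of cytokine response genes, and IL-2 signalling also feeds into the mTORC1, MYC and PI3K pathways that set the size and metabolism of the cell. In CTL it is known for sustaining the production of granzyme B and perforin, the proteins that kill target cells, and for opposing the receptors and transcription factors of naive and memory T cells. FOXO1, a transcription factor that AKT keeps out of the nucleus, drives many of the latter.

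The authors deposited the values as FPKM, fragments scaled to the length of the exons and to the size of the library, rounded to 2 decimals. The summed FPKM of a library was between 473409 and 502972 in IL-2 and between 446551 and 453027 without IL-2. Read totals were not given with the files, and the spacing of the low FPKM of genes with 1 annotated transcript put the effective library sizes at an estimated 10.2 to 12.8 M reads, with no gap between the groups. Libraries correlated at a Pearson r of 0.989 to 0.995 within a group and 0.868 to 0.901 between groups, across genes, which are not independent replicates. T cell identity held in all libraries: Cd8a, the alpha chain of the CD8 co-receptor, was 117, 109.6 and 107 FPKM in IL-2 and 118, 115 and 134 FPKM without IL-2, so the groups overlapped. The table held 9 CD8 T cell markers, of which 4 rose and 0 fell by the rule given below. Of 4 CD4 and regulatory T cell markers in it 1 rose and 2 fell. The member that rose was Cd4, at most 1.92 FPKM. Markers of other cells were low, although some rose and some fell without IL-2. Only 1 of 9 B cell markers was in the table, with Cd79b at 6.30, 3.96 and 2.74 FPKM in IL-2 and 20.6, 15.7 and 10.8 FPKM without IL-2. Myeloid and dendritic cell markers had 7 of 18 members in the table and summed to 33.5 to 41.7 FPKM in IL-2 and 52.5 to 58.4 FPKM without IL-2, while Lyz2, Csf1r and Adgre1 were not among its genes. NK cell markers had 4 of 7 in the table and summed to 113 to 223 FPKM in IL-2 and 21.6 to 36.9 FPKM without IL-2, most of it from Eomes, which CTL also express. Of the erythroid, platelet and stromal markers 1 of 11 was listed, Pecam1, which T cells also express. The part of these markers in the differences below was not tested, and in bulk libraries fewer cells of a kind and less mRNA per cell cannot be told apart.

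Withdrawal of IL-2 for 24 h changed a large part of the transcriptome. For each mRNA, log2(FPKM + 0.1) was compared between the 3 libraries without and the 3 with IL-2 by limma, a linear model that shares its estimate of spread across genes, with a Benjamini-Hochberg adjustment that took in the whole table. To be called, an mRNA had to differ by more than 2-fold and have an adjusted p below 0.05. By this rule 1605 mRNA (14.3%) rose and 1561 (13.9%) fell, together 28.2% of the table, and without the limit on the fold change 8056 (71.9%) differed, 35.2% higher and 36.6% lower. Against these shares the counts of gene groups below are read. The groups were written by hand with earlier results of these data known, and some share members. Their counts and medians describe the chosen members, and no group was tested. In those counts an mRNA that did not pass the test missed the fold limit, the adjusted p or both. It may therefore have shifted by less than 2-fold. The median log2 fold change was -0.0009 over all mRNA, 1.52 over those that rose and -1.43 over those that fell. More than 4-fold changes were found for 419 mRNA that rose and 335 that fell, and more than 16-fold changes for 28 and 42. The 2 groups of libraries did not overlap for 3154 of the 3166 changed mRNA, and this held for 76.1% of all mRNA in the table. Fold changes below are fitted on the log2(FPKM + 0.1) scale, which understates the change of mRNA near 0. FPKM are relative to each library, so a change in the total mRNA of a cell would not show in them. The median and the counts therefore do not tell whether the total changed.

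**Figure D1:**
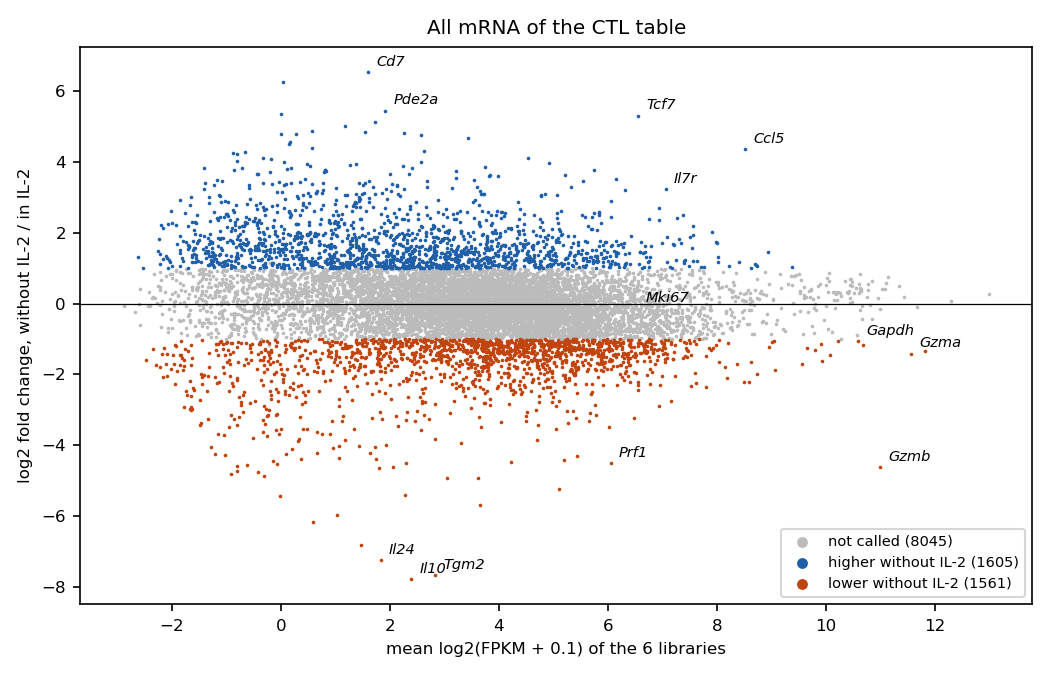
Each point is 1 mRNA of the CTL table. The x axis is the mean of log2(FPKM + 0.1) over the 6 libraries and the y axis the log2 fold change without IL-2 over that in IL-2. The 1605 mRNA that rose are blue, the 1561 that fell are red and the 8045 that were not called are grey. Gzmb is the mRNA with the highest level in IL-2 and lies at -4.63, and the lowest points are Il10 and Tgm2.

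Several of the largest falls were in mRNA of secreted proteins. Il10, which encodes an anti-inflammatory cytokine that effector T cells can also make, was 66.9, 69.7 and 100.2 FPKM in IL-2 and 0.25, 0.39 and 0.16 FPKM without IL-2 (log2 fold change -7.78 ± 0.24 (SE), adjusted p = 6.1e-08). The mRNA was therefore present in every IL-2 library and close to 0 in every library without IL-2. Il24, a cytokine gene next to Il10 on chromosome 1, was 35.1, 50.2 and 47.3 FPKM in IL-2 and 0.22, 0.3 and 0.09 FPKM without IL-2. Lif, a cytokine of the IL-6 family, was 80.8, 89.3 and 102 FPKM in IL-2 and 1.84, 2.14 and 1.16 FPKM without IL-2. Hbegf, a growth factor of the EGF family, fell 72.3-fold and Nov, a secreted matrix protein, 113-fold. Tgm2, a transglutaminase that cross-links proteins, was 67.0, 77.2 and 198 FPKM in IL-2 and 0.3, 0.21 and 0.89 FPKM without IL-2, with replicate 3 in IL-2 far above the other libraries of its group. The remaining mRNA among the 12 largest falls were B4galnt2, Gm98, Vash1, Tnfrsf9, Mycn and Gem, at log2 fold changes of -5.96 to -4.92.

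The largest rise was that of Cd7, a surface glycoprotein of T and NK cells, with 25.8, 23.5 and 41.4 FPKM without IL-2 against 0.23, 0.18 and 0.24 FPKM in IL-2 (log2 fold change 6.54 ± 0.21 (SE), adjusted p = 7.4e-08). Pde2a, a phosphodiesterase that degrades cyclic AMP and cyclic GMP, rose 44.0-fold, from 0.49 to 25.4 FPKM. Tcf7, which encodes TCF-1, the transcription factor that marks naive and stem-like memory T cells, was 564, 523 and 710 FPKM without IL-2 against 15.6, 20.1 and 10.3 FPKM in IL-2 (log2 fold change 5.32 ± 0.21 (SE), adjusted p = 1.7e-07). It was the most abundant mRNA among the 12 with the largest rises, and every library without IL-2 lay far above every library in IL-2. Vipr1, the receptor for vasoactive intestinal peptide, rose from 0.09 to 5.28 FPKM, and Arl5c, a small GTPase of the ARF family, from 0.813 to 27.2 FPKM. The others of these 12 were Gm5538, E130215H24Rik, Gm11435, 2610019F03Rik, Pou6f1, Lypd6b and Gm10640, of which 3 stood at 0 in at least 1 library in IL-2 (Gm5538, E130215H24Rik and Gm10640).

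By the difference in FPKM the changes were led by other mRNA. Among the called mRNA, Ccl5, a chemokine stored and secreted by CTL, gained the most, with 1586, 1724 and 1654 FPKM without IL-2 against 106, 97.6 and 49.9 FPKM in IL-2 (log2 fold change 4.36 ± 0.24 (SE), adjusted p = 5.7e-07). Tcf7, Ms4a4b, Shisa5 and Il7r followed. Ms4a4b, a membrane protein of T cells, rose from 297 ± 33.9 to 813 ± 70.4 FPKM (mean ± SD, n = 3), and Shisa5, a membrane protein linked to apoptosis, from 469 ± 64.7 to 955 ± 57.6 FPKM, although its log2 fold change was 0.92 without replicate 1 in IL-2 and 0.98 without replicate 3 of the deprived cells, below the limit. The largest losses among the called were those of Gzmb, Actb, Gzma, Lgals1 and Gapdh. Actb, the cytoplasmic actin often used as a reference gene, was 4689, 6586 and 6157 FPKM in IL-2 and 2299, 2538 and 1968 FPKM without IL-2 (log2 fold change -1.35 ± 0.16 (SE), adjusted p = 4.7e-05), and Gapdh fell 2.09-fold (log2 fold change -0.96 without replicate 3 in IL-2, where it was not called). Lgals1, the secreted lectin galectin-1, fell 2.27-fold, from 2493 ± 446 to 1094 ± 157 FPKM. Not every abundant mRNA moved: B2m, the light chain of MHC class I, was 2569, 3930.3 and 3783 FPKM in IL-2 and 3174, 3083 and 3254 FPKM without IL-2 (log2 fold change -0.09 ± 0.16 (SE), adjusted p = 0.647), and the groups overlapped.

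The IL-2 receptor itself changed in its alpha chain and less in the others. Il2ra (CD25, chr2:11642792-11693194, mm10) was 554, 524 and 445 FPKM in IL-2 and 108, 106 and 82.1 FPKM without IL-2 (log2 fold change -2.37 ± 0.12 (SE), adjusted p = 4.7e-07), with no overlap of the groups. Il2rb was 495, 566 and 599 FPKM in IL-2 and 304, 316 and 289 FPKM without IL-2, and its log2 fold change of -0.87 ± 0.09 (SE) had an adjusted p of 2.5e-05 but did not reach the limit of 2-fold. Il2rg, the common gamma chain, was 303, 369 and 356 FPKM in IL-2 and 382, 359 and 368 FPKM without IL-2, and the groups overlapped (adjusted p = 0.283). Of the 16 kinases, STATs and phosphatases of the JAK-STAT pathway in the table, 2 rose, 0 fell and 14 were not called. Without the limit on the fold change 12 of the 16 were higher and 1 lower, against 35.2% and 36.6% of all mRNA. Jak1 rose from 110.3 ± 5.16 to 267 ± 64.2 FPKM and Stat4, which carries IL-12 signals, from 38.2 ± 3.53 to 122 ± 23.7 FPKM, whereas the log2 fold changes of Jak3, Stat5a and Stat5b were 0.23, 0.26 and 0.77 and were not called.

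Most of the listed targets of IL-2 and STAT5 fell. Of 24 such genes, all of them in the table, 0 rose, 19 fell and 5 were not called, and the median log2 fold change was -2.33 against -0.0009 over all mRNA. Without the limit on the fold change 23 of the 24 were lower, against 36.6% of all mRNA. Cish (chr9:107296659-107302784), a feedback inhibitor of cytokine receptors and a classical STAT5 target, was 199, 242 and 218 FPKM in IL-2 and 20.7, 21.5 and 16.3 FPKM without IL-2 (log2 fold change -3.50 ± 0.12 (SE), adjusted p = 7.9e-08). The feedback inhibitors Socs1 and Socs2 fell 3.93-fold and 3.01-fold, while Socs3 was 7.50, 9.94 and 10.2 FPKM in IL-2 and 8.27, 7.70 and 10.9 FPKM without IL-2, with overlapping groups (adjusted p = 0.829). Pim1, a survival kinase, fell 2.97-fold, Osm, a cytokine of the IL-6 family, 6.10-fold, and Ahr, the aryl hydrocarbon receptor, 12.9-fold. Lta, the gene of lymphotoxin alpha, was 164, 226 and 195 FPKM in IL-2 and 9.32, 8.62 and 11.1 FPKM without IL-2 (log2 fold change -4.32 ± 0.13 (SE), adjusted p = 6.1e-08), a fall of 19.9-fold with no overlap.

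STAT5 binds DNA at the palindrome TTCNNNGAA. Both Cish and Lta hold a pair of these around an annotated transcript start, and the stretches are shown as examples chosen by hand. Lif, Gzmb and Prf1, of the same list, fell more than either. The sequences are from the RefSeq promoter table of GRCm38.p6, the patch release of mm10, 5′ to 3′ on the strand of the gene, with the matches in capitals. For Cish the stretch is chr9:107296653-107296682, plus strand, and the matches begin at bases 1 and 12 of the annotated transcript. For Lta it is chr17:35205352-35205526, minus strand, and the matches begin 152 and 16 bases before the start that the promoter table uses, which lies inside the annotated gene (chr17:35203165-35205578), so the stretch is within the gene.
Cish: ccagttTTCCTGGAAagTTCTTGGAAatct
Lta: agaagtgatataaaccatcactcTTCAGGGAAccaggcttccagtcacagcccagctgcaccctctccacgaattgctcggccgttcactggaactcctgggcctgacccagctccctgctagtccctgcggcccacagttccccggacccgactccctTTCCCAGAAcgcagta
Over all 10723 RefSeq promoters of the 8409 table genes that have one, 6.09% held a match in the 250 bases before the start, as did 7.17% of the promoters of mRNA that fell and 6.6% of those of mRNA that rose. Of 21 promoters of the IL-2 and STAT5 target genes 2 held one (9.52%), Lta and the unchanged Socs3, and 4 when the first 50 transcribed bases were included (19%), which adds Cish and Gzmb. The letters were not particular to these genes, since 4 of 22 promoters of FOXO1 target genes (18.2%), 4 of 36 of DNA replication genes (11.1%) and 4 of 37 of ribosome biogenesis genes (10.8%) held them before the start. A match of these letters does not show that the factor binds.

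**Figure D2:**
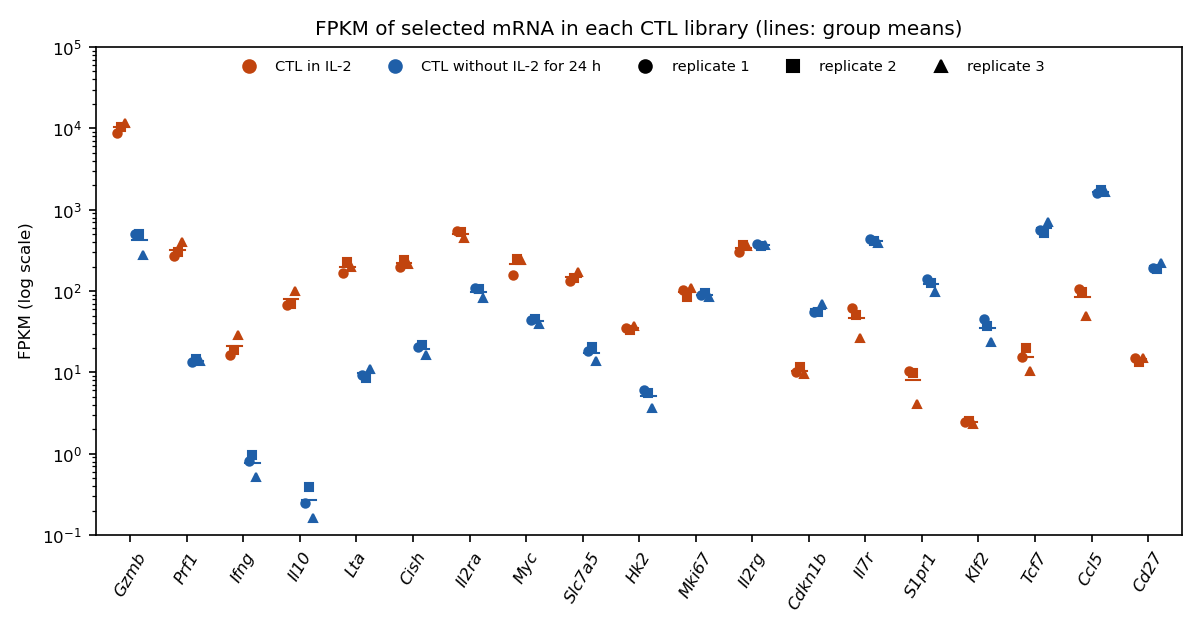
FPKM of 19 mRNA in each library on a log axis. Red symbols are CTL in IL-2 and blue symbols CTL without IL-2, the shape gives the replicate number, and a line marks the group mean. The groups overlap for Mki67 and Il2rg and are apart for the other 17, with Gzmb between 8739.6 and 11655 FPKM in IL-2 and between 276 and 507 FPKM without IL-2.

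Granzyme B and perforin fell steeply. Gzmb (chr14:56258836-56262334), the serine protease that starts apoptosis in target cells, was 8739.6, 10436 and 11655 FPKM in IL-2 and 499, 507 and 276 FPKM without IL-2 (log2 fold change -4.63 ± 0.22 (SE), adjusted p = 3.6e-07). It alone made up 1.85% to 2.33% of the summed FPKM in IL-2 and 0.061% to 0.114% without IL-2. Prf1 (chr10:61297751-61304684), the pore-forming protein perforin, was 268, 298 and 399 FPKM in IL-2 and 13.3, 14.6 and 13.7 FPKM without IL-2 (log2 fold change -4.51 ± 0.13 (SE), adjusted p = 6.1e-08). Gzma fell less, 2.66-fold, from 4947 ± 333 to 1857 ± 47.2 FPKM, and was the more abundant granzyme mRNA once IL-2 was gone. Serpinb9, the inhibitor that protects CTL from their own granzyme B, fell 8.32-fold and Gzme 7.31-fold. The closely related Gzmc to Gzmg all fell, by log2 fold changes of -2.87 to -1.04, but reads can be shared among these copies, and Gzmc was not called without replicate 2 in IL-2 (-0.94) or without replicate 3 of the deprived cells (-0.92). Of 26 cytotoxic granule genes in the table, 2 rose, 12 fell and 12 did not pass the test, with a median of -0.66. The 2 that rose were Lyst, a regulator of lysosome size (4.04 to 17.0 FPKM), and Ctsw, a cathepsin of cytotoxic cells, which was not called without replicate 3 of the deprived cells (log2 fold change 0.97). Components of granule transport and fusion such as Unc13d, Stxbp2 and Lamp1 had log2 fold changes of 0.02, 0.23 and 0.30 and were not called. Fasl, the ligand of the other killing pathway, was 19.6, 20.3 and 27.0 FPKM in IL-2 and 13.6, 14.2 and 22.4 FPKM without IL-2, and its groups overlapped (adjusted p = 0.0698). It was lower in all 3 same-numbered pairs, and with the replicate as a block its adjusted p was 0.0029, at a log2 fold change of -0.43 that is below the limit of 2-fold.

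Cytokine mRNA fell together with the granzymes. Of 24 in the table, 2 rose, 14 fell and 8 did not pass the test, and the median was -1.51. Ifng, the main cytokine of CTL, was 16.3, 18.8 and 28.9 FPKM in IL-2 and 0.81, 0.97 and 0.51 FPKM without IL-2 (log2 fold change -4.63 ± 0.25 (SE), adjusted p = 5.7e-07). Tnf was 42.8, 55.8 and 59.0 FPKM in IL-2 and 4.39, 5.45 and 5.35 FPKM without IL-2, a fall of 10.1-fold. For both, every library without IL-2 lay well below the lowest in IL-2. The 2 members that rose were Ltb, which encodes lymphotoxin beta (371, 387 and 438 FPKM without IL-2 against 73.5, 84.9 and 54.6 FPKM in IL-2), and Il16, from 31.5 to 108 FPKM. Il13 was listed at 0 in every library without IL-2 and at 2.22, 2.01 and 1.29 FPKM in IL-2. The chemokines split evenly. Ccl3, Ccl4 and Cxcl10 fell and Ccl5, Xcl1 and Ccl6 rose, all 6 of those in the table, but apart from Ccl5 and Ccl4 they stayed below 5 FPKM in every library, and Ccl6 and Cxcl10 were not called with a pseudocount of 1. Xcl1, which attracts cross-presenting dendritic cells, was 3.25, 2.51 and 3.25 FPKM without IL-2 against 0.31, 1.11 and 0.82 FPKM in IL-2.

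Receptors for other cytokines moved in both directions. Of 26 in the table, 8 rose, 4 fell and 14 did not pass the test. Il7r (chr15:9506159-9529941), the receptor for the survival cytokine of naive and memory T cells, was 430, 414 and 388 FPKM without IL-2 against 61.9, 50.1 and 26.6 FPKM in IL-2 (log2 fold change 3.23 ± 0.25 (SE), adjusted p = 3.4e-06). The groups did not overlap. Il6ra rose from below 0.1 FPKM in each IL-2 library to 2.73, 2.21 and 1.80 FPKM. Both chains of the type I interferon receptor rose, Ifnar1 2.54-fold and Ifnar2 2.63-fold, as did the IL-18 receptor Il18r1 (2.62-fold). The fall included both chains of the IL-12 receptor, Il12rb1 from 163 ± 6.90 to 63.7 ± 9.75 FPKM and Il12rb2 from 165 ± 1.40 to 76.1 ± 11.4 FPKM.

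Costimulatory and inhibitory receptors did not move as a block. Of 18 costimulatory receptors in the table, 6 rose, 3 fell and 9 did not pass the test. Cd27, a TNF receptor family member of naive and memory T cells, was 193, 188 and 222 FPKM without IL-2 against 14.9, 13.3 and 15.2 FPKM in IL-2 (log2 fold change 3.79 ± 0.09 (SE), adjusted p = 6.1e-08), whereas Tnfrsf9 (4-1BB), of the same family, was 179, 196 and 265 FPKM in IL-2 and 4.96, 6.46 and 5.14 FPKM without IL-2 (log2 fold change -5.24 ± 0.15 (SE), adjusted p = 6.1e-08). Neither pair of groups overlapped. Cd28 rose 2.66-fold and Cd226 3.85-fold, and Tnfrsf8 (CD30) and Slamf7 fell 6.68-fold and 5.64-fold. Among 17 inhibitory receptors and related genes 5 rose, 5 fell and 7 did not pass the test. Slamf6 was 50.1, 50.5 and 49.9 FPKM without IL-2 against 6.14, 4.83 and 2.08 FPKM in IL-2. Ctla4 rose 5.88-fold, from 22.5 ± 5.70 to 130.3 ± 10.2 FPKM, and Tigit 2.53-fold. Lag3 was close to the limit at 2.01-fold and was not called with a pseudocount of 1 (log2 fold change 0.98) or without replicate 1 or 2 in IL-2 (0.97 and 0.94). Havcr2 (TIM-3) fell from 46.6 ± 8.94 to 7.88 ± 1.24 FPKM, Cd244 from 8.92 ± 0.168 to 1.46 ± 0.146 FPKM and Pdcd1 (PD-1) from 12.4 ± 2.01 to 4.44 ± 0.825 FPKM. Of the killer lectin-like receptors, Klrd1 (CD94) was 220, 208 and 309 FPKM without IL-2 against 34.4, 20.1 and 25.1 FPKM in IL-2, and Klrb1f also rose and Klra5 fell. These families have near-identical members, so the reads of single genes are uncertain. The TCR complex and its proximal signalling genes had 4 of 23 members that rose and none that fell, against 14.3% and 13.9% of all mRNA. Those that rose were Cd3d, Cd3g, Cd8b1 and Plcg1, at 2.19- to 2.53-fold. Lck, the kinase that starts TCR signalling, was 329, 365 and 370.2 FPKM in IL-2 and 371, 351 and 394 FPKM without IL-2 and its groups overlapped.

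Transcription factors of the naive and memory states rose more often than the table as a whole. Of 25, 12 rose, 1 fell and 12 did not pass the test, with a median of 0.98. Klf2, which maintains quiescence and the expression of homing receptors, was 45.0, 37.5 and 23.6 FPKM without IL-2 against 2.47, 2.51 and 2.30 FPKM in IL-2 (log2 fold change 3.76 ± 0.20 (SE), adjusted p = 5.6e-07). Bach2, a repressor of effector genes, was 8.15, 9.17 and 13.1 FPKM without IL-2 against 0.88, 0.78 and 1.15 FPKM in IL-2, and Bcl6, a repressor active in memory and follicular T cells, 5.04, 5.57 and 8.47 FPKM without IL-2 against 0.26, 0.4 and 0.52 FPKM in IL-2. None of these groups overlapped. Lef1, the partner of TCF-1, rose 2.87-fold and Foxo1 2.30-fold. The member that fell was Eomes, a T-box factor that has roles in both effector and memory cells, with 75.8, 104 and 163 FPKM in IL-2 and 9.97, 11.3 and 20.8 FPKM without IL-2 (log2 fold change -3.02 ± 0.31 (SE), adjusted p = 1.9e-05). Id3 was 24.9, 23.3 and 23.4 FPKM without IL-2 against 16.9, 16.4 and 15.2 FPKM in IL-2, apart but by less than 2-fold, and Tox had a log2 fold change of -0.12.

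The factors of the effector state showed no common direction. Of 24 in the table, 4 rose, 4 fell and 16 did not pass the test, counts near the shares of all mRNA, and the median was -0.22. Irf8, an interferon regulatory factor induced in effector cells, was 96.0, 111 and 134 FPKM in IL-2 and 8.95, 10.0 and 9.73 FPKM without IL-2, and Zbtb32, a repressor of cytokine genes, 207, 283 and 349 FPKM in IL-2 and 35.7, 33.5 and 20.1 FPKM without IL-2. Xbp1, of the secretory stress response, fell 3.81-fold and Bhlhe40 2.48-fold. Ikzf3, Rora and Ikzf2 rose 4.42-fold, 5.30-fold and 7.78-fold. The best known drivers were not called. Tbx21 (T-bet) was 33.1, 35.4 and 24.2 FPKM without IL-2 against 15.2, 18.7 and 15.8 FPKM in IL-2, and Id2, which restrains E proteins, 379, 399 and 362 FPKM without IL-2 against 575, 693 and 835 FPKM in IL-2. Prdm1 (BLIMP-1) was 7.25, 6.55 and 4.85 FPKM without IL-2 against 7.85, 7.47 and 6.54 FPKM in IL-2, and Irf4, a factor scaled to TCR strength, 29.7, 31.8 and 21.3 FPKM without IL-2 against 36.6, 34.1 and 27.1 FPKM in IL-2. For Prdm1 and Irf4 the groups overlapped, with adjusted p of 0.194 and 0.188 (0.096 and 0.0327 with the replicate as a block, both lower in all 3 pairs), and for Tbx21 and Id2 they were apart at log2 fold changes of 0.88 and -0.87. Tbx21 was called without replicate 3 of the deprived cells (log2 fold change 1.05) and Id2 without replicate 1 in IL-2.

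Immediate early factors and the feedback inhibitors of MAP kinases fell. Of 20 activation induced factors, 2 rose, 9 fell and 9 did not pass the test. Egr1, an early target of ERK, was 8.49, 14.6 and 24.9 FPKM in IL-2 and 2.05, 2.65 and 2.06 FPKM without IL-2 (log2 fold change -2.65 ± 0.32 (SE), adjusted p = 5.6e-05). Fosl2, an AP-1 subunit, fell 3.99-fold, while Fos fell from 2.53 to 0.157 FPKM and Fosl1 from 4.59 to 0.0567 FPKM. Nfkbia and Tnfaip3, inhibitors of NF-kB, rose 2.69-fold and 3.88-fold. The MAPK feedback inhibitors, phosphatases and adaptors whose transcription follows ERK activity, had the second lowest median of the lists, -2.03, and 1 rose, 9 fell and 3 did not pass the test, of 13. Spred1, an inhibitor of RAS signalling, was 10.1, 10.1 and 13.3 FPKM in IL-2 and 0.98, 1.09 and 1.12 FPKM without IL-2 and Dusp1, a phosphatase of MAP kinases, 11.6, 15.1 and 15.9 FPKM in IL-2 and 2.44, 3.03 and 2.47 FPKM without IL-2. The member that rose was Dusp10, at 2.21-fold, and without replicate 1 of both groups it was not called.

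**Figure D3:**
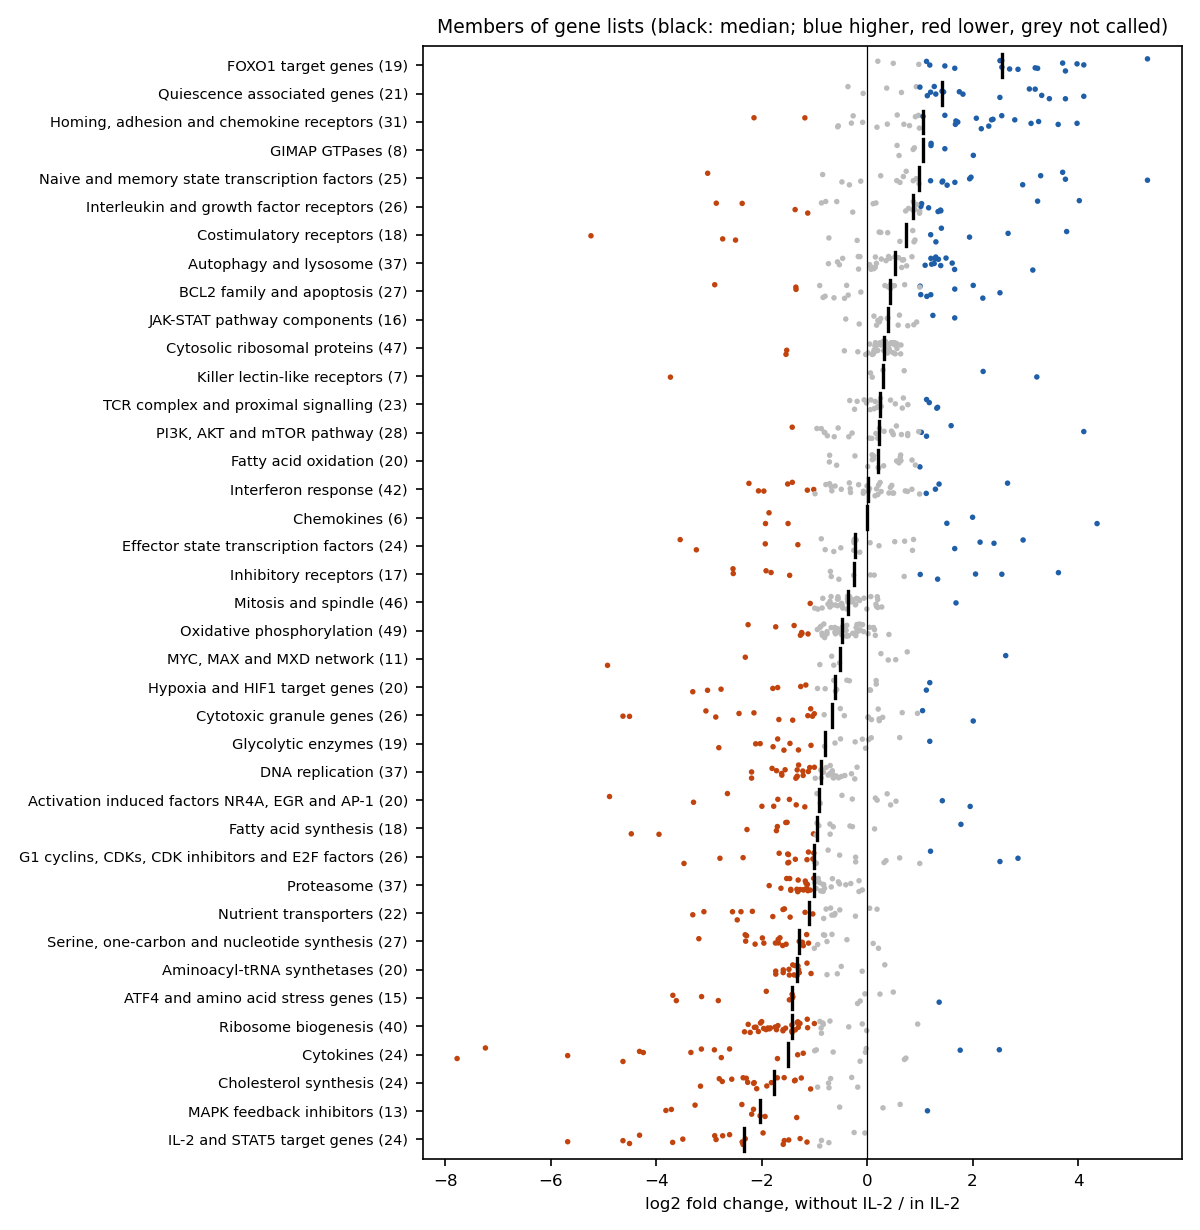
Members of 39 hand-written gene lists, 1 row per list with the number of members in the table in brackets, ordered by the median. Points give the log2 fold change without IL-2 over that in IL-2 of single mRNA (blue rose, red fell, grey not called), and the black bar is the median. The medians run from -2.33 for IL-2 and STAT5 target genes to 2.56 for FOXO1 target genes.

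Genes known as FOXO1 targets had the highest median of all lists. Of 19 in the table, 16 rose, 0 fell and 3 did not pass the test, with a median of 2.56. They include homing receptors, cell cycle inhibitors and regulators of growth signals, and several have been named above. S1pr1, the receptor that lets T cells leave lymph nodes, was 142, 126 and 96.5 FPKM without IL-2 against 10.3, 9.92 and 4.14 FPKM in IL-2 (log2 fold change 3.98 ± 0.31 (SE), adjusted p = 3.2e-06). Ccr7, a chemokine receptor that takes naive T cells into lymph nodes, was 101, 86.5 and 137 FPKM without IL-2 against 40.4, 40.1 and 34.1 FPKM in IL-2. Pik3ip1, an inhibitor of PI3K, was 85.7, 89.8 and 118 FPKM without IL-2 against 6.73, 6.63 and 3.73 FPKM in IL-2 (log2 fold change 4.11 ± 0.22 (SE), adjusted p = 4.9e-07), and Tsc22d3 (GILZ), a leucine zipper protein also induced by glucocorticoids, rose 9.11-fold. The 3 that were not called were Sesn3, Ddit4 and Trib1, at 0.20, 0.50 and 0.98.

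FOXO factors bind the core GTAAACA, which was searched on both strands. Of 22 RefSeq promoters of FOXO1 target genes 1 held it in the 250 bases before the start (4.55%), and 3 with the first 50 transcribed bases (13.6%). The share was 2.14% of all 10723 promoters, 2.82% for mRNA that rose and 1.57% for those that fell. Other lists held it as often or more often, with 2 of 21 promoters of IL-2 and STAT5 target genes (9.52%) and 2 of 41 of mitosis genes (4.88%). The promoter with the match is 1 of those of Bcl2l11, and it is shown because it is the sole hit before a start among these genes. Its stretch is chr2:128125788-128125842 of GRCm38.p6, plus strand, 5′ to 3′, with the core in capitals.
Bcl2l11: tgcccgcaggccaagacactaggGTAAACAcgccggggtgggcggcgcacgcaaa

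Receptors for homing and adhesion also rose, in a list that shares members such as S1pr1 with the FOXO1 targets. The study also lists Itga4 and Cxcr4 among FOXO1 dependent mRNA of CTL. Of 31 in the table, 16 rose, 2 fell and 13 did not pass the test, with a median of 1.06. Itga4, the alpha chain of the integrin VLA-4, was 133, 142 and 116 FPKM without IL-2 against 16.1, 10.6 and 6.64 FPKM in IL-2 (log2 fold change 3.62 ± 0.26 (SE), adjusted p = 2.0e-06). Itgae (CD103), an integrin of tissue-resident T cells, rose 9.54-fold and Itgb3 8.63-fold. The chemokine receptors Cxcr3, Cxcr4, Cxcr5, Cxcr6, Ccr8 and Cx3cr1 rose 3.19- to 6.97-fold. Those that fell were Cd69, which retains T cells in tissue by binding S1PR1, at 53.0, 52.1 and 50.6 FPKM in IL-2 and 11.2, 11.6 and 12.2 FPKM without IL-2, and Itgav, at 2.27-fold. Integrin chains of the lymphocyte LFA-1 did not change by the rule, with Itgal at -0.26 and Itgb2 at -0.55.

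Quiescence associated genes rose in 16 of 21 cases and fell in none, with a median of 1.42. Ypel3, a growth inhibitor, was 138, 155 and 174 FPKM without IL-2 against 15.5, 17.6 and 10.1 FPKM in IL-2 and Pdcd4, an inhibitor of translation initiation, 127, 123 and 131 FPKM without IL-2 against 17.1, 14.3 and 8.32 FPKM in IL-2. Btg1 and Btg2, which speed the decay of mRNA and hold T cells in quiescence, rose 5.73-fold and 8.45-fold. Txnip, which limits glucose uptake, was 461, 454 and 474 FPKM without IL-2 against 147, 146 and 121 FPKM in IL-2 (log2 fold change 1.75 ± 0.09 (SE), adjusted p = 4.9e-07). The GIMAP GTPases, which lymphocytes need for survival, lie in 1 cluster on chromosome 6, and 4 of 8 rose. Gimap6 was 469, 476 and 505 FPKM without IL-2 against 124, 121 and 114 FPKM in IL-2. Of 28 genes of the PI3K, AKT and mTOR pathway themselves, 4 rose, 1 fell and 23 were not called, against 14.3% and 13.9% of all mRNA. Without the limit on the fold change 13 were higher and 10 lower, so most of these shifts were of less than 2-fold. By the rule, 2 rose without replicate 3 of both groups, and 6 rose and 2 fell without replicate 1 of both. The members that rose included Pik3ip1, Sesn1 (2.18-fold) and Pik3r2 (2.04-fold), of which Sesn1 and Pik3r2 were not called without replicate 3 in IL-2 (log2 fold changes 0.88 and 0.81), and the one that fell was Eif4ebp1, a target of mTORC1 that restrains translation, from 66.3 ± 10.4 to 24.6 ± 2.33 FPKM.

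Of 11 genes of the MYC, MAX and MXD network, 1 rose, 2 fell and 8 did not pass the test, counts near the shares of all mRNA. Myc, the transcription factor of growth and metabolism, was 158, 248 and 238 FPKM in IL-2 and 43.5, 44.8 and 38.8 FPKM without IL-2 (log2 fold change -2.31 ± 0.16 (SE), adjusted p = 1.6e-06), and Mycn, its relative, 39.6, 48.8 and 49.0 FPKM in IL-2 and 1.67, 1.36 and 1.22 FPKM without IL-2. Mxd4, a protein that competes with MYC for the partner MAX, was 87.2, 87.0 and 87.5 FPKM without IL-2 against 19.1, 19.2 and 7.52 FPKM in IL-2 (log2 fold change 2.63 ± 0.30 (SE), adjusted p = 4.0e-05), with replicate 3 in IL-2 well below the other libraries of its group. Max itself and the remaining members of the network were not called.

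Genes of glucose metabolism fell at several steps. Of 19 glycolytic genes, 1 rose, 9 fell and 9 did not pass the test, and the median was -0.81. Slc2a1 (GLUT1), the glucose transporter, was 55.6, 66.0 and 80.1 FPKM in IL-2 and 20.9, 18.7 and 18.0 FPKM without IL-2 (log2 fold change -1.79 ± 0.13 (SE), adjusted p = 2.3e-06). Hk2, which phosphorylates glucose, was 35.3, 33.5 and 37.5 FPKM in IL-2 and 6.00, 5.56 and 3.64 FPKM without IL-2, Tpi1 fell 4.33-fold and Pgam1 4.08-fold. Ldha, which turns pyruvate into lactate, fell from 1370.3 ± 56.6 to 424 ± 44.1 FPKM. Slc16a3 (MCT4), which exports lactate, was 64.7, 66.8 and 83.6 FPKM in IL-2 and 7.88, 7.79 and 5.85 FPKM without IL-2. The glycolytic list rose in Pdk1 alone, a kinase that keeps pyruvate from the mitochondria, from 21.6 ± 0.167 to 49.5 ± 4.73 FPKM. Hif1a was 118, 112 and 139.8 FPKM in IL-2 and 73.4, 68.9 and 69.4 FPKM without IL-2, apart but by less than 2-fold, and of 20 hypoxia and HIF1 target genes 2 rose, 7 fell and 11 did not pass the test. Bnip3 and Bnip3l, both receptors for mitophagy, moved in opposite directions, Bnip3 from 117 to 14.3 FPKM and Bnip3l from 24.1 to 52.6 FPKM.

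Nutrient uptake and biosynthesis genes fell. Of 22 nutrient transporters 0 rose, 12 fell and 10 did not pass the test, among them Slc7a5, the large neutral amino acid transporter, at 132, 144 and 171 FPKM in IL-2 and 18.3, 20.2 and 13.9 FPKM without IL-2, and Tfrc, the transferrin receptor for iron, at 155, 106 and 119 FPKM in IL-2 and 24.3, 23.1 and 17.1 FPKM without IL-2. Neither pair of groups overlapped. Cholesterol synthesis had 18 of 24 genes that fell and none that rose, with a median of -1.76. Fdps, which makes farnesyl pyrophosphate, was 152, 151 and 196 FPKM in IL-2 and 19.4, 20.7 and 15.5 FPKM without IL-2 (log2 fold change -3.16 ± 0.13 (SE), adjusted p = 2.2e-07). Hmgcs1 fell 4.81-fold and Cyp51 5.93-fold. Of 18 genes of fatty acid synthesis, 1 rose, 8 fell and 9 did not pass the test. The desaturases Scd1 and Fads2 led, with Scd1 at 33.0, 37.8 and 46.8 FPKM in IL-2 and 3.00, 3.19 and 1.47 FPKM without IL-2 and Fads2 falling 22.2-fold, and Fasn, the fatty acid synthase, fell 4.85-fold. Acss2, which makes acetyl-CoA from acetate, rose 3.43-fold. Of 20 genes of fatty acid oxidation, 1 rose, 0 fell and 19 did not pass the test. Cpt1a, the gate of fatty acids into the mitochondria, was the member that rose, at 2.00-fold, and it was not called with a pseudocount of 1 (log2 fold change 0.97), without replicate 3 in IL-2 (0.85) or without replicate 1 or 2 of the deprived cells (0.98 and 0.97).

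Serine, one-carbon and nucleotide synthesis fell in 18 of 27 genes and rose in none (median -1.29). Shmt1, the cytosolic serine hydroxymethyltransferase, was 36.2, 36.2 and 40.8 FPKM in IL-2 and 5.02, 3.90 and 3.36 FPKM without IL-2. Its mitochondrial counterpart Shmt2 was 126, 174 and 186 FPKM in IL-2 and 33.8, 33.6 and 29.8 FPKM without IL-2. Psat1 fell 4.97-fold and Ctps, which makes CTP, 4.88-fold. The amino acid stress genes under ATF4 fell too, 9 of 15, with Asns, the asparagine synthetase, at 44.0, 49.1 and 53.0 FPKM in IL-2 and 7.66, 8.54 and 4.76 FPKM without IL-2. Ddit3 (CHOP), a member of the same list that is induced by stress of the endoplasmic reticulum, went the other way, with 22.0, 25.6 and 28.7 FPKM without IL-2 against 8.39, 9.29 and 11.9 FPKM in IL-2.

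Genes that assemble the ribosome fell, whereas those of the ribosomal proteins mostly stayed within 2-fold. Of 40 ribosome biogenesis genes 0 rose, 30 fell and 10 did not pass the test, with a median of -1.43. Nop56, of the snoRNP that methylates ribosomal RNA, was 167, 182 and 199.8 FPKM in IL-2 and 45.0, 41.0 and 32.4 FPKM without IL-2 (log2 fold change -2.22 ± 0.12 (SE), adjusted p = 6.2e-07), and Polr1b, a subunit of RNA polymerase I, fell 4.40-fold. The tRNA synthetases fell in 15 of 20 cases (median -1.32), with Mars from 54.1 ± 2.78 to 16.2 ± 0.746 FPKM and Tars from 85.2 ± 7.32 to 25.5 ± 1.56 FPKM. The cytosolic ribosomal proteins did not follow: of 47, 0 rose, 2 fell and 45 did not pass the test, and their median was 0.32. Without the limit on the fold change 30 of them were higher, against 35.2% of all mRNA. Those that fell, Rpl30 and Rpl34, are listed at 5.73 to 1.93 FPKM and 8.52 to 2.84 FPKM, far below all other members, the next being Rpl22 (132 to 190.3 FPKM), and genes of this family have many processed copies that share reads. Together the ribosomal proteins made up 10.2% to 10.6% of the summed FPKM in IL-2 and 13.7% to 14.4% without IL-2. The proteasome fell in 19 of 37 subunits and activators, with Psmd1 from 104 ± 3.53 to 28.8 ± 4.04 FPKM and Psme3 from 179.7 ± 26.1 to 57.5 ± 4.65 FPKM. By the rule oxidative phosphorylation fell in 7 of 49, a share near that of all mRNA. Its median was nevertheless -0.48, and 35 were lower without the limit on the fold change, against 36.6% of all mRNA. Cycs, cytochrome c, was its strongest member, with 38.1, 38.5 and 43.5 FPKM in IL-2 and 9.44, 8.26 and 7.30 FPKM without IL-2.

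**Figure D4:**
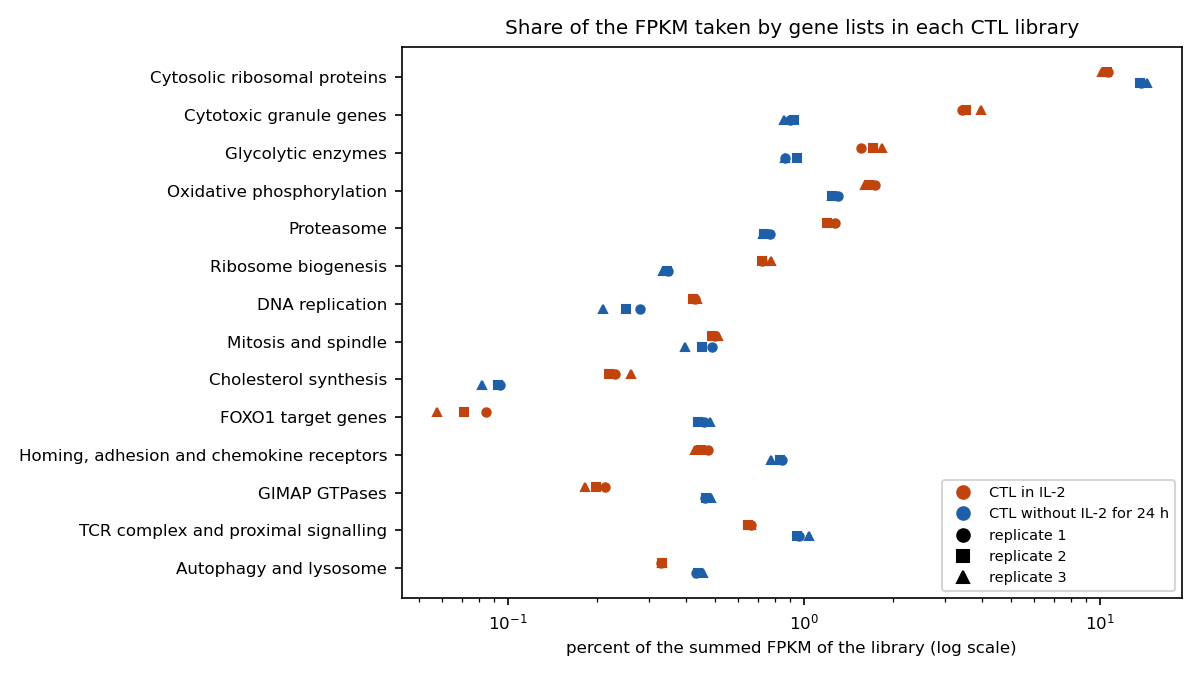
Summed FPKM of 14 gene lists as a percent of the summed FPKM of each library, on a log axis. Red symbols are CTL in IL-2, blue symbols CTL without IL-2, and the shape gives the replicate number. Cytotoxic granule genes took 3.43% to 3.97% of the summed FPKM in IL-2 and 0.857% to 0.927% without IL-2, and no list shown has overlapping groups.

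Replication genes fell by the rule more often than mitosis genes. Mki67 (Ki-67), the marker of cycling cells, was 103, 83.6 and 108 FPKM in IL-2 and 88.7, 93.4 and 83.4 FPKM without IL-2, and the groups overlapped (adjusted p = 0.241). Of 46 mitosis and spindle genes, 1 rose, 1 fell and 44 did not pass the test, with a median of -0.37. Without the limit on the fold change 32 were lower, against 36.6% of all mRNA, so most of these shifts were of less than 2-fold. Plk1, the kinase of mitotic entry, was the one that fell, from 84.0 ± 16.6 to 39.3 ± 4.58 FPKM, and it was not called without replicate 2 or 3 in IL-2 or without replicate 3 of the deprived cells (log2 fold change -0.99 in each case). Cdc25b, a phosphatase that activates CDK1, rose, with 153, 138 and 119 FPKM without IL-2 against 40.3, 46.3 and 40.3 FPKM in IL-2. Of 37 DNA replication genes 0 rose, 17 fell and 20 did not pass the test, with a median of -0.88, and 36 were lower without the limit on the fold change. Orc1, of the origin recognition complex, was 15.9, 15.3 and 18.0 FPKM in IL-2 and 4.15, 3.54 and 2.94 FPKM without IL-2 (log2 fold change -2.19 ± 0.14 (SE), adjusted p = 1.1e-06), and Cdc6, which loads the MCM helicase, 17.6, 20.4 and 22.1 FPKM in IL-2 and 7.78, 6.25 and 4.40 FPKM without IL-2. Neither pair of groups overlapped. Of 26 cyclins, kinases, inhibitors and E2F factors of G1, 3 rose, 13 fell and 10 did not pass the test. Ccnd2 and Cdk6, which pair to drive entry into the cycle, fell 2.20-fold and 5.11-fold, and Ccne1 3.18-fold. The inhibitor Cdkn1b (p27) was 55.9, 55.4 and 69.0 FPKM without IL-2 against 10.0, 11.5 and 9.55 FPKM in IL-2 (log2 fold change 2.52 ± 0.11 (SE), adjusted p = 2.8e-07), and Ccng2, a cyclin of arrested cells, rose 7.27-fold. Other inhibitors moved in the opposite direction, with Cdkn2a at 94.8, 100.2 and 60.2 FPKM in IL-2 and 12.9, 15.2 and 8.61 FPKM without IL-2 and its neighbour Cdkn2b at 44.6, 51.9 and 32.7 FPKM in IL-2 and 4.28, 4.82 and 2.49 FPKM without IL-2.

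E2F factors, which the retinoblastoma protein restrains, drive replication genes through sites such as TTCCCGC and TTGGCGC. These letters, searched on both strands, were found in the 250 bases before the start in 12 of 36 promoters of DNA replication genes (33.3%), in 7 of 41 of mitosis genes (17.1%) and in 6 of 27 of the G1 list (22.2%). They were found in 10.2% of all 10723 promoters, in 12.4% of those of mRNA that fell and in 5.96% of those of mRNA that rose. With the first 50 transcribed bases the DNA replication count was 20 of 36 (55.6%). The hits of the 3 replication genes that had one and fell by the rule, of 17 that fell, are shown, since their mRNA fell. The other replication genes with a match before the start were not called. The stretches, all on the plus strand of GRCm38.p6, are chr11:98907988-98908044 for Cdc6 (fell 3.29-fold), chr8:75109320-75109391 for Mcm5, a subunit of the helicase (fell 2.32-fold), and chr17:56040344-56040400 for Chaf1a, of the histone chaperone CAF-1 (fell 2.17-fold), 5′ to 3′ with the matches in capitals. The start used for Cdc6 lies inside the annotated gene (chr11:98907709-98923942), so its stretch is within the gene and not before it.
Cdc6: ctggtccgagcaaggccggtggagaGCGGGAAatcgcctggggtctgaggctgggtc
Mcm5: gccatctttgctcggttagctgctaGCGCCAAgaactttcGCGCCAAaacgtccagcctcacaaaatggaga
Chaf1a: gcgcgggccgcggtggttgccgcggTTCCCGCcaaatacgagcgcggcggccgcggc
The E-box CACGTG, which MYC binds, was in 2 of 37 promoters of ribosome biogenesis genes (5.41%) before the start and in 9 of 37 (24.3%) with the first 50 transcribed bases, against 8.38% and 10.1% of all promoters.

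Survival genes shifted within the BCL2 family. Bcl2l1 (BCL-XL), an anti-apoptotic member, was 79.3, 101 and 90.6 FPKM in IL-2 and 11.7, 14.1 and 10.7 FPKM without IL-2 (log2 fold change -2.89 ± 0.12 (SE), adjusted p = 2.2e-07). Bcl2 was 69.4, 56.5 and 60.2 FPKM in IL-2 and 32.8, 34.3 and 32.2 FPKM without IL-2, apart but by less than 2-fold, and Mcl1 96.6, 91.8 and 96.8 FPKM without IL-2 against 70.2, 68.1 and 70.8 FPKM in IL-2, a log2 fold change of 0.45. Bcl2a1b and Bcl2a1d, also anti-apoptotic, rose close to the limit, at log2 fold changes of 1.01 and 1.02. Their means went from 3.29 to 6.72 FPKM and from 1.26 to 2.66 FPKM. Pro-apoptotic members moved in both directions. Among those that rose were Bcl2l11 (BIM), at 23.1, 26.9 and 43.7 FPKM without IL-2 against 9.60, 8.88 and 9.81 FPKM in IL-2, Bbc3 (PUMA), at 30.1, 33.8 and 24.7 FPKM without IL-2 against 9.35, 9.70 and 4.07 FPKM in IL-2 and Bmf, from 0.89 to 4.86 FPKM. Bak1 and Bid fell 2.55-fold and 2.55-fold, and Bax was not called. Of 27 members of the family and of apoptosis, 8 rose, 3 fell and 16 did not pass the test. Autophagy and lysosome genes rose in 12 of 37 cases and fell in none, with Npc2, a cholesterol carrier of the lysosome, at 258, 262 and 275 FPKM without IL-2 against 94.7, 83.3 and 74.5 FPKM in IL-2. Of 42 interferon response genes 4 rose and 7 fell, against 14.3% and 13.9% of all mRNA, with a median of 0.01. Irf9 rose 2.18-fold, and Iigp1, a GTPase induced by interferon gamma, fell from 118 ± 27.5 to 28.6 ± 8.83 FPKM.

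Among the other 9 libraries of the series are 3 of P14 CD8 T cells activated for 24 h by peptide in the presence of IL-2 and IL-12, and 3 of such cells that also received 10 µM PI3Kdi, IC87114, an inhibitor of the p110δ subunit of PI3K. Each replicate of these was a pool of 3 mice divided among the conditions. The 6 libraries share no sample with the CTL, and their table was normalised on its own, so only the calls are set side by side and no level is compared. PI3Kdi raised 342 mRNA (3.04% of 11262) and lowered 237 (2.1%) by the same rule. This fit, on which the counts below rest, did not pair the samples by pool. With the replicate as a block 347 rose and 244 fell. The study, which fitted counts with the same limits, reports more mRNA in each direction. Among the 10637 mRNA in both tables, 164 were higher in both contrasts, which is 11.3% of the mRNA that rose without IL-2 and 53.1% of those that rose with PI3Kdi, where 13.6% of all mRNA rose without IL-2. Lower in both were 68, or 4.84% and 36.2%, where 13.2% of all fell without IL-2. In opposite directions there were 53. Of these 28 rose without IL-2 and fell with PI3Kdi, 14.9% of the mRNA lowered by PI3Kdi and thus near the 13.6% of all mRNA, and 25 fell without IL-2 and rose with PI3Kdi, 8.09% of those raised by PI3Kdi and below the 13.2% of all. With a pseudocount of 1, PI3Kdi raised 170 and lowered 141 mRNA, and 65 were higher and 44 lower in both contrasts.

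Among the shared falls were Gzmb (log2 fold change -4.63 without IL-2 and -3.08 with PI3Kdi), Prf1 (-4.51 and -1.55), Ifng (-4.63 and -6.08) and Tnfrsf9 (-5.24 and -2.80). Among the shared rises were Klf2 (3.76 and 4.28) and Il7r (3.23 and 1.74). Several of the strongest changes without IL-2 were called there alone. Tcf7 was at 5.32 without IL-2 and 0.41 with PI3Kdi, Il10 at -7.78 and 0.32, Cish at -3.50 and -0.41, Myc at -2.31 and -0.20 and S1pr1 at 3.98 and 0.01, although the difference between the contrasts was not tested. As examples of opposite calls, Socs2 fell without IL-2 (-1.59) and rose with PI3Kdi (2.72), and Xcl1 rose (2.00) and fell (-6.63). In other CTL given PI3Kdi, the study reports no regulation of granzyme, perforin or Tnfrsf9 mRNA, and a fall of Ifng. It reports rises of Klf2, Il7r, Tcf7 and S1pr1 in those CTL. The calls above therefore set CTL without IL-2 beside newly activated cells, not beside CTL with the inhibitor.

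**Figure D5:**
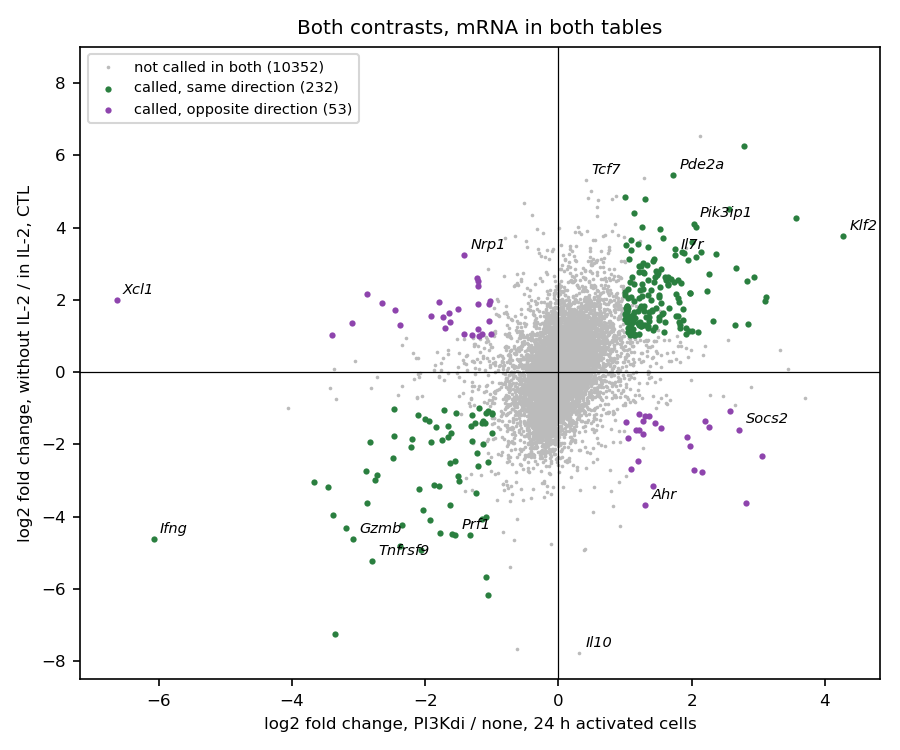
Log2 fold changes of the 10637 mRNA in both tables, with PI3Kdi in cells activated for 24 h on the x axis and without IL-2 in CTL on the y axis. The 232 mRNA called in both in the same direction are green, the 53 called in opposite directions are purple and the rest are grey. Gzmb, Ifng and Prf1 lie at the lower left and Klf2 and Il7r at the upper right.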

How the data were processed

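RNA of 3 CTL cultures in IL-2 and 3 without, labelled biological replicates 1 to 3, was sequenced. Whether the replicates came from separate animals was not given in the sources used here, so p-values measure the spread between these samples. The authors deposited FPKM per gene, and per the labels and their processing notes reads were aligned to mm10 with STAR 2.5.2b, counted with the featureCounts tool of Subread 1.5.1 and scaled with edgeR, whose TMM factors the deposited values include. The study's methods do not describe the CTL libraries, so the same steps were assumed for them. Whether counting used strand was not given in the sources used here. Of 237 named mRNA with coordinates, 85 overlap another RefSeq gene, and their reads may be shared. FPKM steps gave 10.2 to 12.8 M effective reads per library, an estimate from 99 to 130 genes each, so the precision of single low mRNA is limited by counting error that FPKM do not carry.

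Here log2(FPKM + 0.1) was compared with limma 3.58.1 (R 4.3.3, intensity trend, two-sided, Benjamini-Hochberg over 11211 genes). In simulated data of 11211 genes with 200 changed, the fit recovered 200 and made 0 false calls. The simulation drew independent noise from the spread in IL-2 and changed no mRNA near 0, so it checks the code and not these calls. Same-numbered libraries deviated together from their group means (r = 0.123, 0.166 and 0.257 over 10263 genes, against -0.201 to 0.091 for other pairs). Genes are not independent, and centring 3 libraries on their mean ties these values to each other. They therefore cannot establish that the replicate numbers pair the samples, and a fit with the replicate as a block was run as an alternative. Other alternatives were pseudocounts of 1 and 0.01, a minimum mean FPKM of 1, median scaling, no trend, a fold limit of 1.5 or none, each library left out, and a promoter window of 300 instead of 250 bases. Named mRNA were the 12 largest rises and falls, the 5 largest gains and losses in FPKM, a list of core genes, and up to 4 called members of each gene list per direction (or the 2 most abundant where fewer than 2 were called). Named outside this rule, after their values were seen, were Ahr, B2m, Bcl2a1b, Bcl2a1d, Btg1, Btg2, Cd8a, Chaf1a, Cx3cr1, Cxcr6, Ddit4, Ifnar1, Il13, Itgal, Itgb2, Jak3, Lamp1, Lck, Ldha, Mcm5, Osm, Rpl22, Sesn3, Stat5a, Stat5b, Stxbp2, Tox, Trib1, Tsc22d3 and Unc13d. The samples, gene lists and core genes were chosen with earlier results of these data known. All sample columns of the table were used, and levels were not compared with the separately normalised table of the activated cells. Promoters are from RefSeq (GRCm38.p6) and were held for 8409 genes.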

Additional observations from a re-analysis of the deposited data

How the results depend on the processing

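With the replicate block 1606 mRNA rose and 1562 fell: 0 calls were lost, 2 were gained, and the block changed no call of a named mRNA in CTL. With it PI3Kdi raised 347 and lowered 244 mRNA, 168 were higher and 73 lower in both contrasts, and 28 and 25 opposite. The counts of 1605 and 1561 became 1053 and 1212 with a pseudocount of 1, 2824 and 2833 with a fold limit of 1.5, and 3948 and 4108 with none, and ranged over 1510 to 1690 and 1475 to 1659 with 1 library left out. With a pseudocount of 1, PI3Kdi raised 170 and lowered 141 mRNA, the shared calls were 65 higher and 44 lower in both, 16 that rose without IL-2 and fell with PI3Kdi and 12 the other way, and the list medians were 0.61 for costimulatory receptors, -1.37 for MAPK feedback inhibitors, -0.91 for nutrient transporters and 0.41 for autophagy and lysosome. Fatty acid oxidation, CD4 and regulatory T cell markers and erythroid, platelet and stromal markers then had 0 members that rose. With a mean FPKM of at least 1 the chemokine median was 1.51, and the CD4 and regulatory T cell markers had a median of -2.37 with 0 that rose. With promoter windows of 300 bases, 12.4% (E-box) and 14.5% (E2F) of the promoters of mRNA that fell and 3.91% (FOXO) of those that rose held a match.

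With the same replicate left out of both groups, list medians ranged over 0.75 to 0.90 (interleukin receptors), -0.95 to -0.54 (cytotoxic granules), 2.37 to 2.77 (FOXO1 targets), -0.77 to -0.56 (hypoxia), -1.04 to -0.88 (fatty acid synthesis), -1.05 to -0.69 (DNA replication), 0.37 to 0.64 (autophagy) and 1.32 to 1.45 (quiescence). Counts ranged over 1 to 2 lower (naive and memory factors), 0 to 1 higher (MAPK feedback), 2 to 6 higher and 1 to 2 lower (PI3K pathway), 0 to 1 higher (fatty acid oxidation), 0 to 3 lower (mitosis) and 0 to 1 higher (erythroid, platelet and stromal). Of 240 named mRNA, 14 lost and 10 gained the call in at least 1 alternative, all in the same direction. Socs3, which was not called, changed sign with 1 library left out, between -0.19 and 0.0579 (0.02 and 0.04 without replicates 2 and 3 in IL-2, 0.0071 and 0.0579 without replicates 1 and 2 of the deprived cells). The cause of these shifts was not tested beyond what each setting removes. Depth limits the mRNA near 0, whose fold changes move with the pseudocount.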

Other observations

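Replicate 3 tended to lie at the outer edge of both groups. Among the 1605 mRNA that rose, replicate 3 was the lowest of the 3 libraries in IL-2 for 869 and the highest of the 3 without IL-2 for 926. Among the 1561 that fell it was the highest in IL-2 for 905 and the lowest without IL-2 for 978. Within same-numbered pairs the median log2 change of the mRNA that rose was 1.39 in replicate 1 and 1.74 in replicate 3, and that of the mRNA that fell was -1.31 and -1.61, with replicate 2 between them in both cases.

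Beside Socs2 and Xcl1, several receptors and regulators were called in opposite directions in CTL without IL-2 and in activated cells with PI3Kdi, at shares of the PI3Kdi calls near or below those of all mRNA (14.9% against 13.6% for mRNA that rose without IL-2, and 8.09% against 13.2% for those that fell). Ahr stood at log2 fold changes of -3.69 without IL-2 and 1.30 with PI3Kdi, and Iigp1 at -2.06 without IL-2 and 1.97 with PI3Kdi. Cd226, an activating receptor, stood at 1.94 without IL-2 and -1.79 with PI3Kdi, and Il18r1, a chain of the IL-18 receptor, at 1.39 without IL-2 and -1.63 with PI3Kdi. These examples were selected with the values in view, the difference between the contrasts was not tested, and time, stage of the culture and treatment all differ between them.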
